A study of Mus musculus with 28 samples.

Results

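The genes described here encode 9 enzymes that turn squalene into cholesterol: Sqle, Lss, Cyp51, Tm7sf2, Msmo1, Nsdhl, Ebp, Sc5d and Dhcr7. They were chosen by name from the published order of the pathway, with earlier results of these data known. Other enzymes of these steps, Hsd17b7 and Lbr, lie outside the 9 and are described further on. A gene was taken as measured where a probe set of the array names it and no other gene. All 9 had exactly 1 such probe set, out of 18820 genes that the array names in this way. Each of 28 male C57BL/6J mice gave 1 liver and 1 expression array, with values on a log2 scale. The intermittent diet that every mouse followed alternated: 1 week of moderate-fat food eaten freely, with 25% of its energy from fat, came before 1 week at 60% of the energy that mice on the control diet took in. The lifelong groups started the diet at 9 weeks of age and comprised 6 livers taken at 6 months of age, 7 at 12 months and 7 at 24 months. The 8 mice of a switched group ate the moderate-fat food without pause until 12 months of age, then followed the intermittent diet, and were sampled at 24 months. No group was free of the intermittent diet, so that age is compared within it, and age and time on the diet rose together. Before the liver was taken the mice went without food for 4 hours, received a gavage of carboxymethyl cellulose, and went without food for another 6 hours. Which week of the diet cycle they were in at sampling is not stated in the sources used here.

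Cholesterol is built from acetyl-CoA through mevalonate and squalene, and the steps from squalene onward take place on the membrane of the endoplasmic reticulum. Squalene is first oxidised and folded into the ring compound lanosterol, which then loses its extra methyl groups and has its double bonds moved or reduced until cholesterol remains. The liver is a main site of this synthesis. When sterols in the membrane fall, the transcription factor SREBP2 is released and turns on genes of the whole pathway, and feeding and fasting are known to change their level in liver.

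Promoter sequences in RefSeq (build GRCm38.p6) were matched by symbol for 8 of the 9 genes, and Sqle was not matched. The 250 bases before the start site of 4 of them are printed because their genes anchor the results below: Tm7sf2 passed the test at both 12 and 24 months against 6 months, Msmo1 and Nsdhl had the largest differences after Sqle, and Ebp had the lowest correlations with the other genes across livers. Capitals mark the motif CCAAT or its complement ATTGG, and the motif GGGCGG or its complement CCGCCC, which are known as the CCAAT box and the GC box. Each sequence runs 5′ to 3′ toward the start site.
Tm7sf2, chr19:6067851-6068100, minus strand: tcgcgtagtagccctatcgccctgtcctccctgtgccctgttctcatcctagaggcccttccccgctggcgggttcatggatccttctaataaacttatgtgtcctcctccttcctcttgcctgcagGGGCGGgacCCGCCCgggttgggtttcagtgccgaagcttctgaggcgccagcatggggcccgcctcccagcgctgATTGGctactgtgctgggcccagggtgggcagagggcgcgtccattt
Msmo1, chr8:64733579-64733828, minus strand: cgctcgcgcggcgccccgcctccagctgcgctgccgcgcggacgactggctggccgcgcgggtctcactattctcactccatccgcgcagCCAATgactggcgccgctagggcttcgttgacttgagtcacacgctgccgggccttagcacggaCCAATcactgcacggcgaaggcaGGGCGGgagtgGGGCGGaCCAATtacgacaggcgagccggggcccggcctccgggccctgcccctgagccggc
Nsdhl, chrX:72918271-72918520, plus strand: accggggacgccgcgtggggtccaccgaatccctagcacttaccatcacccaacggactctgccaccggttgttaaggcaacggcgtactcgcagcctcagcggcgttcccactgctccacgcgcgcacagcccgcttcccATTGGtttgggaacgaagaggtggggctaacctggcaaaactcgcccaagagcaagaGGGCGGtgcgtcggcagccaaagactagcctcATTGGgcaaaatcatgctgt
Ebp, chrX:8193513-8193762, minus strand: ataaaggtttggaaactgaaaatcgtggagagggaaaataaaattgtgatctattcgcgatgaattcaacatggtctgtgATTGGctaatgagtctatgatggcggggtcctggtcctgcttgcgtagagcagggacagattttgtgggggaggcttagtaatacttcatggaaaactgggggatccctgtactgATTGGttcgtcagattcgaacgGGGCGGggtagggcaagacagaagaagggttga
On both strands CCAAT was found before a start site of 8 of 8 genes, against 37.5% of all genes in the promoter table, and GGGCGG likewise for 8 of 8, against 35.4%. No match of CCAAT overlapped a match of GGGCGG in these windows. Msmo1 held 3 CCAAT matches, and Nsdhl and Ebp held 2 each. The nearest lay 16 bases before the start site in Nsdhl, 43 bases in Tm7sf2 and 51 bases in both Msmo1 and Ebp. The core of the sterol regulatory element bound by SREBP, searched as TCACNCCAC on both strands, was in 0 of the 8 genes' windows and in 1.22% of all genes' windows. The E-box CACGTG was found for Sc5d and Dhcr7, against 6.86% of all genes. These are exact matches of letters in 250 bases, and binding was not measured. Sites that differ from the pattern searched, or that lie outside these bases, were not counted. The 0 of 8 for the sterol regulatory element therefore does not show that these genes lack it.

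Array medians lay between 5.23 and 5.31 log2 units. The defining hepatocyte markers were high in all livers, with albumin (Alb) between 13.48 and 13.72 log2 units and transthyretin (Ttr) between 13.16 and 13.36. The first part of the array name, G150, G151 or G152, was taken here to mark 3 array batches. Each of these batches held at least 1 liver of every group. Differences given below are on the log2 scale and come from limma with array batch as a term, with p adjusted by Benjamini-Hochberg over 35556 probe sets and 0.05 as the threshold. In bulk tissue, fewer cells of a type and less RNA per cell cannot be told apart. The labels give each sample a mouse of its own.

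Across the 4 groups, the mean levels of these transcripts were lowest at 6 months and higher at 12 months, at 24 months and in the switched mice. Not every difference passed: Lss and Cyp51 passed in no comparison, and 1 of 9 passed at 12 against 6 months. All 9 had their lowest group mean at 6 months and their highest at 24 months of the lifelong diet. Sqle had the largest difference between 24 and 6 months, 3.83-fold, and Ebp the smallest, 1.28-fold. For Sqle, Cyp51, Tm7sf2, Msmo1 and Nsdhl the SD was also larger at 6 months than in any other group.

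**Figure D1:**
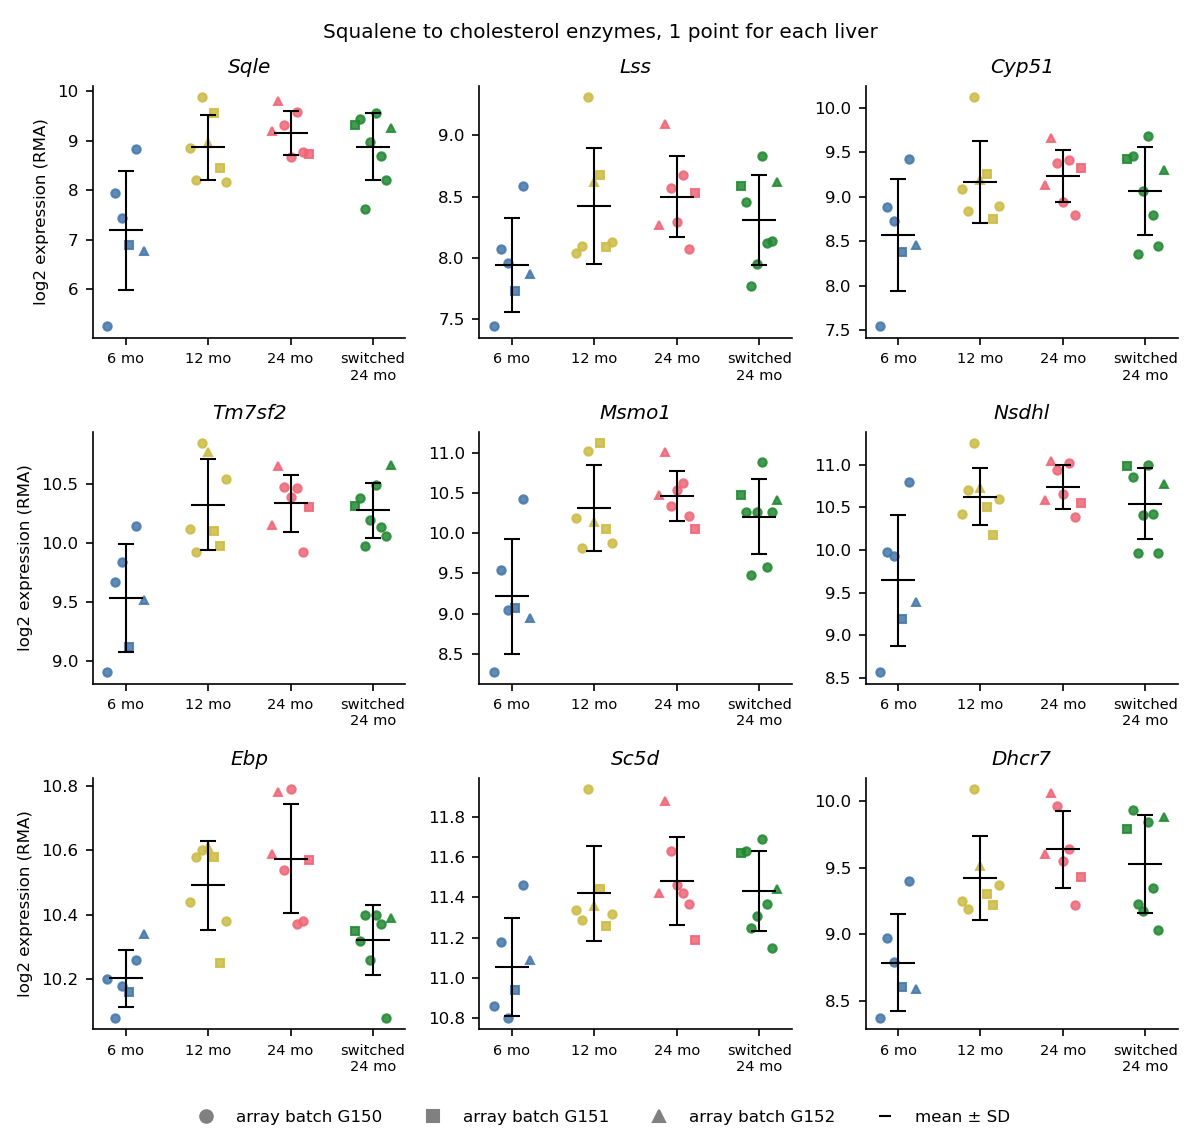
Log2 expression of the 9 genes in each of the 28 livers (points, shaped by array batch), by group, with mean and SD as bars; the vertical scale differs between panels. Sqle at 6 months reaches from 5.25 to 8.82, while Ebp at 24 months (10.37 to 10.79) lies wholly above Ebp at 6 months (10.08 to 10.34).

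Sqle encodes squalene epoxidase, which adds oxygen to squalene and is a known control point of the late pathway. At 6 months its values ran from 5.25 to 8.82 log2 units, with a median of 7.16. At 12 months they ran from 8.17 to 9.87 (median 8.85), at 24 months from 8.66 to 9.79 (median 9.20), and in switched mice from 7.62 to 9.55 (median 9.12). At 24 months 4 of 7 livers exceeded the highest 6-month liver, and these groups overlapped only through that liver, replicate 5. The mean was 7.18 ± 1.21 (SD, n = 6) at 6 months and 9.15 ± 0.45 (SD, n = 7) at 24 months, and the difference of 1.94 (SE 0.42) passed (limma adjusted p = 0.00933). Its range within the 6-month group alone spanned 11.9-fold. Lss encodes lanosterol synthase, which folds the epoxide into lanosterol. Its values were 7.44 to 8.59 (median 7.92) at 6 months, 8.04 to 9.31 (median 8.13) at 12 months, 8.07 to 9.09 (median 8.53) at 24 months and 7.77 to 8.83 (median 8.30) after the switch. All groups overlapped. The difference of 24 from 6 months was 0.53 (SE 0.21; 95% interval 0.093 to 0.969) and did not pass (limma adjusted p = 0.155).

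The next 4 enzymes carry lanosterol through the removal of its extra methyl groups and the reduction of a double bond. Cyp51, the cytochrome P450 that starts this by removing a methyl group as formate, had values of 7.54 to 9.43 (median 8.60) at 6 months and 8.80 to 9.66 (median 9.32) at 24 months. At 12 months they were 8.75 to 10.12 (median 9.09), and after the switch 8.35 to 9.69 (median 9.18). Of the 24-month livers 1 lay above the highest 6-month liver. The difference was 0.65 (SE 0.26) and did not pass (limma adjusted p = 0.16). Tm7sf2, a sterol reductase that removes the double bond left by Cyp51, ran from 8.91 to 10.14 (median 9.59) at 6 months and from 9.92 to 10.65 (median 10.39) at 24 months. At 12 months its values were 9.92 to 10.84 (median 10.12), and in switched mice 9.97 to 10.66 (median 10.25). Of the 7 livers at 24 months, 6 exceeded the highest 6-month liver. Tm7sf2 rose by 0.77 (SE 0.17) from 9.53 ± 0.46 (SD, n = 6) to 10.34 ± 0.24 (SD, n = 7), with limma adjusted p = 0.0104.

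Msmo1, the oxidase that acts on the remaining pair of methyl groups, was between 8.27 and 10.42 (median 9.06) at 6 months. It was between 9.81 and 11.12 (median 10.14) at 12 months, 10.05 and 11.01 (median 10.47) at 24 months, and 9.48 and 10.89 (median 10.26) after the switch. Only 1 liver at 6 months, replicate 5, reached the range of the lifelong older groups. The rise from 6 to 24 months was 1.24 (SE 0.28), or 2.36-fold (limma adjusted p = 0.0125). Nsdhl, an X-linked dehydrogenase that completes each removal by decarboxylation, was between 8.57 and 10.80 (median 9.66) at 6 months and between 10.39 and 11.04 (median 10.66) at 24 months. It was between 10.18 and 11.25 (median 10.60) at 12 months and between 9.96 and 10.99 (median 10.60) in switched mice. Replicate 5 was again the one 6-month liver inside the range of the lifelong 12-month and 24-month groups, and replicates 2 and 5 lay inside that of the switched mice. Nsdhl was 2.13-fold higher at 24 than at 6 months (difference 1.09, SE 0.26, limma adjusted p = 0.0142). Without 6-month replicate 6 the Nsdhl call was lost (difference 1.005, limma adjusted p = 0.0543). In that fit 846 probe sets were called in all, against 1681 in the full fit.

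The last 3 enzymes shift, add and reduce double bonds. Ebp, the X-linked sterol isomerase also known as emopamil binding protein, was between 10.08 and 10.34 (median 10.19) at 6 months, 10.25 and 10.61 (median 10.58) at 12 months, and 10.37 and 10.79 (median 10.57) at 24 months. In switched mice it was between 10.08 and 10.40 (median 10.36). Livers at 24 months and at 6 months did not overlap. Its difference of 0.35 (SE 0.07), 1.28-fold, had the smallest adjusted p of the 9 (limma adjusted p = 0.0049). Its SD within groups was 0.09 to 0.17. Sc5d, a desaturase that adds a double bond to the ring, was between 10.80 and 11.46 (median 11.02) at 6 months and between 11.19 and 11.88 (median 11.42) at 24 months. It was between 11.26 and 11.94 (median 11.34) at 12 months and between 11.15 and 11.69 (median 11.40) after the switch. The difference of 0.42 (SE 0.12) was just short of the threshold (limma adjusted p = 0.0506). Sc5d passed without 6-month replicate 5 (limma adjusted p = 0.0179) or without 24-month replicate 7 (limma adjusted p = 0.0305). In the other 11 of 13 fits with 1 liver left out it did not pass (limma adjusted p up to 0.127). Dhcr7, the reductase that makes cholesterol from its dehydro precursor, was between 8.37 and 9.40 (median 8.70) at 6 months, 9.19 and 10.09 (median 9.30) at 12 months, 9.22 and 10.06 (median 9.60) at 24 months, and 9.03 and 9.93 (median 9.57) after the switch. Of the 24-month livers, 6 of 7 exceeded the highest 6-month liver. Dhcr7 rose by 0.83 (SE 0.18), or 1.78-fold, between these ages (limma adjusted p = 0.0101).

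Old against young livers on the lifelong diet gave the clearest separation. Sqle, Tm7sf2, Msmo1, Nsdhl, Ebp and Dhcr7 rose, 6 of 9, while 2.10% of all probe sets were called higher in this comparison. Lss, Cyp51 and Sc5d did not pass, and 9 of 9 had a positive difference, with a median of 0.774 against -0.016 over all probe sets. In 7 of 7 old livers each of the 9 genes lay above its 6-month mean. Within batches G150, G151 and G152 the median difference was 0.67, 0.94 and 0.94, and all 9 were positive in each, although G151 and G152 held 1 liver at 6 months each. The fit on batch G150 alone, with 4 livers on each side, called 0 of 9 with 194 probe sets called in all. Markers of other cells moved between the same groups: of 4 measured B cell markers 3 rose, with their mean level at 4.87 to 5.33 in the 6-month livers and 5.21 to 6.61 at 24 months. The mean level of 6 Kupffer cell markers was 7.99 to 8.62 at 6 months and 7.85 to 9.57 at 24 months, and that of 8 hepatocyte markers 12.88 to 12.99 and 12.75 to 12.92. Of the hepatocyte markers 1 of 8 changed: Tat, an enzyme of tyrosine breakdown, fell by 0.42 (limma adjusted p = 0.0355). The part of these cells in the result was not tested.

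**Figure D2:**
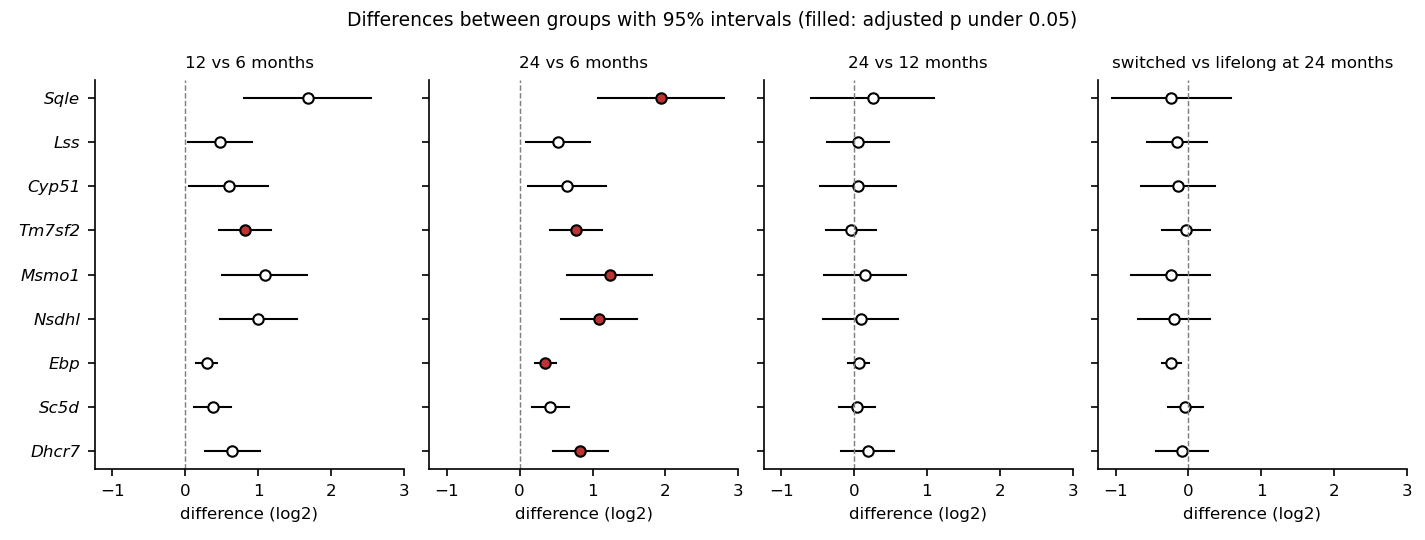
Difference between groups for each of the 9 genes (points, log2) with 95% intervals of the limma fit, 1 panel for each of 4 comparisons (those of switched mice with 6 and 12 months are not drawn); filled points have an adjusted p under 0.05. In the panel of 24 against 6 months 6 points are filled, in that of 12 against 6 months Tm7sf2 alone, and none in the other panels.

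Middle-aged against young livers asks whether this difference was present by 12 months. The differences of all 9 were again positive, and 1 of 9 passed, Tm7sf2, while 0.363% of all probe sets were called higher. Tm7sf2 rose by 0.82 (SE 0.17, limma adjusted p = 0.033), and 7 of 7 livers at 12 months were above the 6-month mean for every one of the 9 genes. Msmo1 differed by 1.09 (SE 0.28, limma adjusted p = 0.0729), Dhcr7 by 0.65 (SE 0.18, limma adjusted p = 0.098) and Sc5d by 0.38 (SE 0.12, limma adjusted p = 0.153). Sqle, with 1.68 (SE 0.42), Nsdhl, with 1.00 (SE 0.26), and Ebp, with 0.29 (SE 0.07), had limma adjusted p of 0.0636, 0.0655 and 0.0523. Cyp51 and Lss had the largest, 0.324 and 0.328. Without adjustment 9 of 9 had a p under 0.05, as did 4643 of 35556 probe sets. The median difference was 0.645, against 0.001 over all probe sets, and 0.59, 0.66 and 0.92 within the 3 batches, with all 9 positive in each. Leaving out single livers moved the count, and also the number of all probe sets called, which was 210 in the full fit. The count was 6 without 6-month replicate 5 (403 probe sets called) and 2 without 6-month replicate 1 (546). The Tm7sf2 call was lost when replicate 2, 3, 4 or 6 of the 6-month group was left out, and likewise 3, 4, 5 or 6 at 12 months. Over these fits its limma adjusted p was up to 0.127 and its difference 0.729 to 0.88, with 7 to 35 probe sets called. The mean level of the Kupffer cell markers was 7.59 to 8.13 at 12 months and 7.99 to 8.62 at 6 months, and its part was not tested.

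Between 12 and 24 months of the lifelong diet none of the 9 passed in limma (0 of 9), where 0.0253% of all probe sets passed. With an unadjusted p under 0.05 there were 0 of 9, beside 3953 of 35556 probe sets. Differences ran from -0.05 for Tm7sf2 to 0.26 for Sqle, with a median of 0.062 against -0.02 over all probe sets. The 95% intervals were wide for Sqle (-0.585 to 1.101) and narrow for Ebp (-0.079 to 0.202). Within batches the medians were 0.01, 0.15 and 0.20. Comparisons of 12 and of 24 months with 6 months use the same 6 young livers, so their likeness is not separate evidence.

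The switch asks whether mice that reached middle age on moderate-fat food and then alternated differ at 24 months from mice that alternated from youth. None of the 9 passed in limma (0 of 9, with 1 at an unadjusted p under 0.05), where 0.0197% of all probe sets passed. Without adjustment 2696 of 35556 probe sets had a p under 0.05, so that 1 of 9 is close to the background. All 9 differences were negative, from -0.25 for Msmo1 to -0.04 for Tm7sf2, with a median of -0.156 against -0.005 over all probe sets. The sign did not hold across batches, which had medians of -0.19, 0.36 and -0.09: in G150 all 9 were negative, and in G151, with 1 liver on each side, 8 of 9 were positive. For Sqle the interval was -1.049 to 0.581 and for Dhcr7 -0.442 to 0.264. Ebp was the gene with the unadjusted p under 0.05. Its mean was 10.32 ± 0.11 (SD, n = 8) in switched and 10.57 ± 0.17 (SD, n = 7) in lifelong livers, a difference of -0.23 (SE 0.07; interval -0.368 to -0.096; limma adjusted p = 0.343). None of 8 switched livers exceeded the lifelong mean of Ebp, and the difference within batches was -0.22, -0.22 and -0.29.

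The order of the group means put the switched mice between 6 and 24 months for all 9 genes. The 12-month mean was above the switched mean for Lss, Cyp51, Tm7sf2, Msmo1, Nsdhl and Ebp and below it for Sqle, Sc5d and Dhcr7. No gene passed between switched and 12-month livers (limma, 0 of 9, with Ebp at an unadjusted p of 0.0163; 2.32% of all probe sets passed). In that comparison 6210 of 35556 probe sets had an unadjusted p under 0.05, so that 1 of 9 is not above the background. Set against 6 months, the switched mice had 6 of 9 genes higher, while 4.66% of all probe sets were called higher. These were Sqle (difference 1.71), Tm7sf2 (0.74), Msmo1 (0.99), Nsdhl (0.89), Sc5d (0.38, limma adjusted p = 0.0441) and Dhcr7 (0.74). Markers of other cells moved between the same groups, with 2 of 4 B cell markers (Ighm and Cd79b) and 2 of 5 stellate cell markers (Des and Col1a1) higher and 1 of 8 hepatocyte markers (Tat) lower. The mean level at 6 months and after the switch was 4.87 to 5.33 and 5.47 to 6.31 for B cell markers, 8.41 to 8.55 and 8.51 to 8.89 for stellate cell markers, and 12.88 to 12.99 and 12.76 to 12.85 for hepatocyte markers. Their part in the result was not tested. Ebp did not pass there (0.12, SE 0.07, limma adjusted p = 0.29), nor did Lss (0.38) and Cyp51 (0.50). This comparison shares the young livers with those above, and it differs from them in both age and diet history.

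Livers within a group differed together. In 6-month replicate 1 the mean over the 9 genes was 1.36 below the mean of all livers, and 7 of the 9 genes had their lowest value of all 28 livers there. Replicate 5 of the same group was at 0.18 and had the highest 6-month value for 8 of 9 genes, all but Ebp. The other 6-month livers were at -0.38, -0.55, -0.84 and -0.75 for replicates 2, 3, 4 and 6. At 12 months, replicate 3 was at 0.82 and held the highest value of all livers for 7 of 9 genes, while the other 6 livers lay between -0.16 and 0.32. At 24 months replicate 2 was highest, at 0.70, with the top value of its group for 8 of 9 genes, and the others lay between -0.06 and 0.39. Switched livers ran from -0.41 in replicate 3 to 0.52 in replicate 5.

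**Figure D3:**
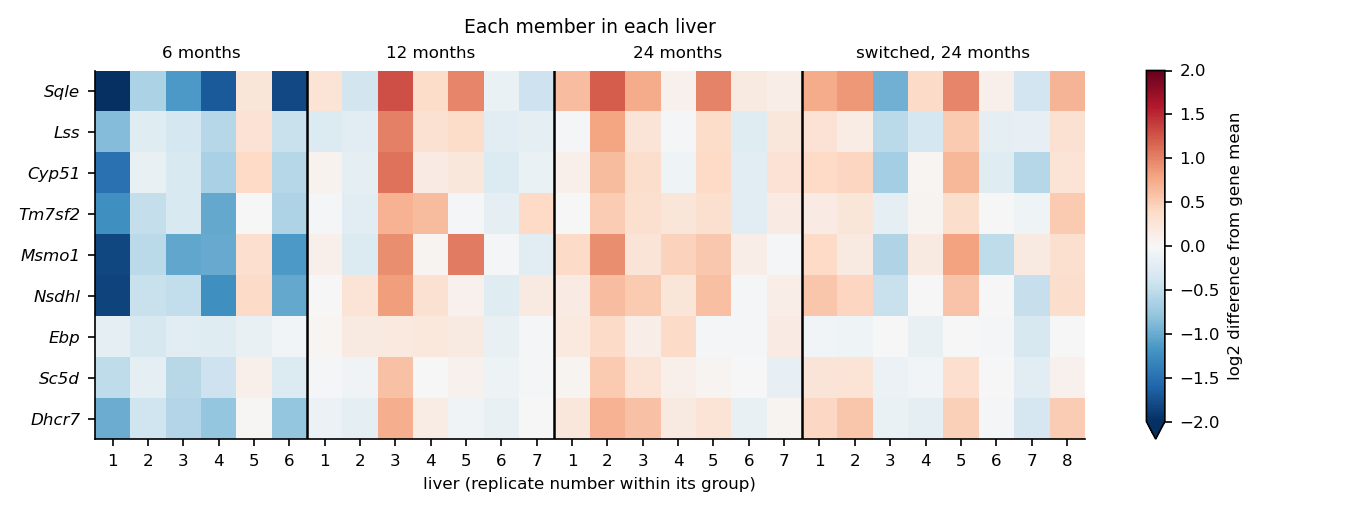
Log2 difference of each gene from its own mean over 28 livers (colour, blue lower and red higher), with livers in columns by group and replicate number; values below -2 share the darkest blue. Columns tend to be of 1 colour, as in 6-month replicate 1 (mean -1.36) and 12-month replicate 3 (mean 0.82), while the Ebp row is pale.

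After group and batch means were removed, Pearson's r over the 28 livers was computed for the 36 pairs of these genes as a description, since the genes of a pair are read from the same array of each liver. Its median was 0.816, and 0.725 without the pair of livers farthest from the median, 6-month replicate 5 and 12-month replicate 3. Cyp51 and Sqle were the closest pair (r = 0.937, Spearman's rho = 0.926). Cyp51 was also the nearest to Lss, Nsdhl and Dhcr7, Tm7sf2 was nearest to Nsdhl (r = 0.866, rho = 0.82), and Sc5d to Dhcr7 (r = 0.874, rho = 0.76). Ebp stood apart, with a median r of 0.284 to the other 8 genes and at most 0.421, to Sc5d (rho = 0.396). Each other gene had a median r of at least 0.755.

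**Figure D4:**
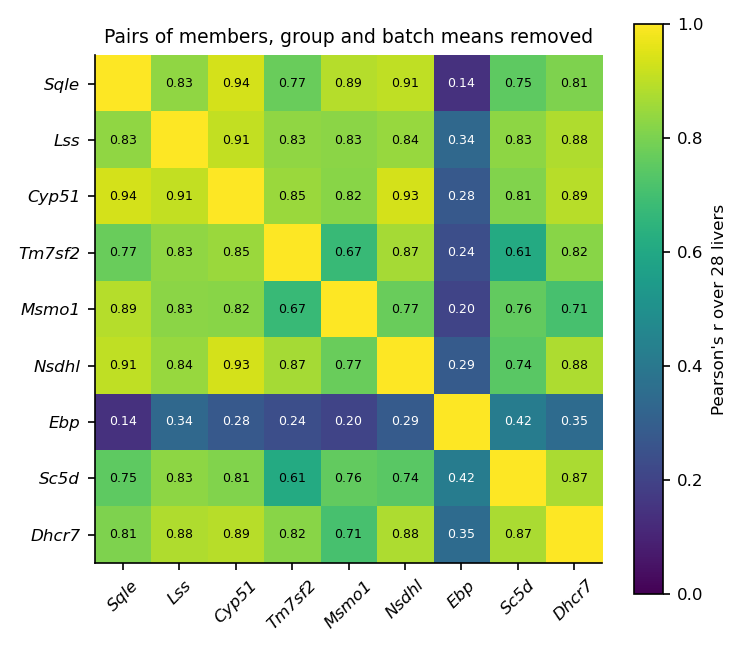
Pearson's r over 28 livers for each pair of the 9 genes after removal of group and batch means (colour and printed value). The Ebp row and column hold values from 0.14 to 0.42, and the pairs without Ebp are higher.

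Outside these 9, the gene whose values most resembled their mean within groups was Idi1, the isomerase that makes the second building block of the pathway (r = 0.948, rho = 0.932, and r = 0.92 without the same pair of livers). It was followed by Rdh11, a retinal reductase (r = 0.919, rho = 0.898), Hmgcs1 (r = 0.885), Fdps (r = 0.881) and Pmvk (r = 0.872), out of all genes with a probe set of their own. With batch means alone removed, Tmem97 took the fifth place (r = 0.911, rho = 0.848) in place of Hmgcs1. These were ranked over the same 28 livers.

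Enzymes of the earlier steps, from acetyl-CoA to squalene, were analysed for 7 genes. At 24 against 6 months 4 of 7 rose, the farnesyl diphosphate synthase Fdps by 1.07 (limma adjusted p = 0.0121), Idi1 by 1.06 (limma adjusted p = 0.0331), the kinase Pmvk by 0.87 (limma adjusted p = 0.0344) and the squalene synthase Fdft1 by 0.68 (limma adjusted p = 0.0425). Their median was 0.866, beside 0.774 for the 9 later genes. At 12 against 6 months 0 of 7 passed in limma, and the median was 0.752. An unadjusted p under 0.05 was seen for 6 of 7, beside 4643 of 35556 probe sets. The mean of these 7 and the mean of the 9 later genes went together over the 28 livers (r = 0.986, rho = 0.974, and r = 0.98 without the 2 most extreme livers), and equally with group and batch means removed (r = 0.986).

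**Figure D5:**
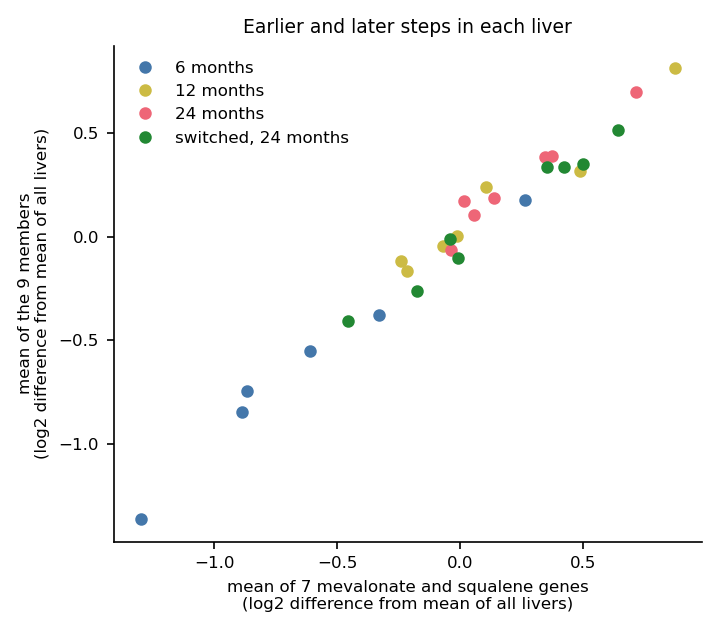
Mean of the 9 late genes (vertical axis) against the mean of 7 mevalonate and squalene genes (horizontal axis) in each of 28 livers, both as log2 difference from the mean of all livers, coloured by group. The points lie close to 1 line (r = 0.986), with 6-month replicate 1 at the low end and 12-month replicate 3 at the high end.

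Among other enzymes of the late steps, Hsd17b7 and Lbr did not pass at 24 or at 12 against 6 months. Hsd17b7, the ketosteroid reductase that works with Nsdhl, differed by 0.03 (SE 0.20, limma adjusted p = 0.958) at 24 against 6 months. Lbr, a nuclear membrane protein that reduces the same double bond as Tm7sf2, differed by -0.08 (SE 0.15, limma adjusted p = 0.828) at 24 and by -0.31 (SE 0.15, limma adjusted p = 0.357) at 12 against 6 months. Lbr fell in switched against 6-month livers (-0.50, limma adjusted p = 0.0245), where Tm7sf2 rose and 5.39% of all probe sets were called lower. Whether Lbr and Tm7sf2 differ in their response was not tested.

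For sterol sensing and uptake 10 genes were analysed. At 24 against 6 months 2 of 10 rose: Npc2, which carries cholesterol out of lysosomes (0.38, limma adjusted p = 0.00368), and Tmem97, a membrane protein that binds the cholesterol exporter Npc1 (0.49, limma adjusted p = 0.0133). Tmem97 was also the 1 of 10 that rose at 12 months (0.52, limma adjusted p = 0.0361). Srebf2, which encodes SREBP2, differed by 0.29 (limma adjusted p = 0.129) and its retention factor Insig1 by 0.42 (limma adjusted p = 0.203) at 24 months. For the use and export of cholesterol 10 genes were analysed. Cyp7b1, an oxysterol hydroxylase of bile acid synthesis that is male-biased in mouse liver, was the 1 of 10 that changed at 24 against 6 months and fell by 0.93 (limma adjusted p = 0.033), where 2.63% of all probe sets were called lower. Cyp7a1, the rate-limiting enzyme of bile acid synthesis, differed by 1.03 (SE 0.34, limma adjusted p = 0.0835), and the exporter Abca1 by -0.20 (limma adjusted p = 0.0711). Between switched and lifelong mice 0 genes of these lists passed in limma. An unadjusted p under 0.05 was seen for 1 of 10 genes of sensing, 2 of 10 of use, 0 of 7 of the earlier steps, and Lbr, beside 2696 of 35556 probe sets.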

How the data were processed

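Liver RNA with an integrity number above 8.0 was hybridised, 1 array for each mouse, with a biotin label. The deposited values are log2 expression, summarised by the authors with RMA, per the submitters' processing notes. The RMA version, the annotation used there and whether all arrays were normalised together are not given in the sources used here. Of 35556 probe sets, 21218 name 1 gene, 1881 several and 12457 none in the platform annotation. Each of the 9 genes has 1 probe set; for other genes the brightest stood for the gene, and no filter was applied. All 28 arrays entered 1 fit, with terms for group and for array batch, in limma 3.58.1 under R 4.3.3. Tests were two-sided. Group means carry the SD, differences the moderated SE. The fit was tested on simulated data. Python 3.11.15, pandas 2.3.3, numpy 2.4.6, scipy 1.17.1 and matplotlib 3.10.9 were used for the rest. The named genes are all 9 members, up to 4 of each pathway list by p, and the 5 most alike in pattern. Members, lists and tests were chosen with earlier results of these data known. The number of arrays limits the precision. Some listed genes are not reported here. Alternatives concerned batch, groups fitted, a 30 percent filter on dim probe sets, normalisation, moderation, array weights, a replicate block, probe set choice and each array left out.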

Additional observations from a re-analysis of the deposited data

Results flagged for a closer look

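Among 40 sets of values (9 genes and their mean in 4 groups), 4 held a liver far from the others of its group by Dixon's test at the 95% level, and chance flags about 1 in 20. In 12-month replicate 3, Cyp51 was at 10.12 with the next liver at 9.26, Sc5d at 11.94 with the next at 11.44, and Dhcr7 at 10.09 with the next at 9.51. Since these genes vary together, the 3 values are not independent. In switched replicate 7, Ebp was at 10.08 with the next liver at 10.26. The low values of 6-month replicate 1 did not reach the limit in a group of 6 with a wide range.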

How the results depend on the processing

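The number of the 9 genes past the threshold is given beside the probe sets called in all, as both moved with the setting. At 12 against 6 months they were 1 and 210 in the main fit. The number was 0 in batch G150 alone and 0 in G151 and G152 alone. There 0 probe sets were called in all, so 0 of 9 is not particular to these genes. It was 0 with the 2 groups alone (22 called in all) and 0 without the 2 arrays whose names carry a suffix (46). It was 4 when the dimmest 30 percent of probe sets were dropped (313 called in all). After a repeated quantile normalization it was 2 (247), and with a trend and robust moderation 2 (250). It was 5 with array weights (518) and 2 with a replicate block (122), and 1 in the other alternatives (108 to 222). With each liver left out it was 0 to 6 (7 to 546 called in all). At 24 against 6 months the main fit called 6 of the 9, with 1681 probe sets called in all. The number was 0 in G150 alone (194), 0 in G151 and G152 alone (3) and 3 with the 2 groups alone (736). It was 7, with Sc5d added, with no batch term, the dimmest 30 percent dropped, repeated quantile normalization or trend and robust moderation. It was also 7, with Sc5d added, with array weights, the replicate block, or without the arrays with a suffix. In these fits 1334 to 2271 probe sets were called in all. With each liver left out the number of the 9 was 5 to 7 (831 to 2370 called in all). The median difference of the 9 ran from 0.522 to 0.781 at 12 against 6 months, from 0.65 to 0.98 at 24 against 6 months, from 0.014 to 0.217 at 24 against 12 months, and from -0.234 to 0.055 in switched against lifelong mice, where it was above 0 in G151 and G152 alone. At 24 against 12 months and in switched against lifelong mice the count was 0 in each of them. The probe sets called in all were 0 to 124 and 0 to 36. Signs that turned were all of differences that had not passed. At 24 against 12 months Tm7sf2 was 0.012 with no batch term, Cyp51 -0.104 and Sc5d -0.003 in G150 alone, and Cyp51 -0.018 without the arrays with a suffix. With each liver left out Tm7sf2 ran from -0.123 to 0.042, Cyp51 from -0.012 to 0.227, Lss from -0.02 to 0.217 and Sc5d from -0.015 to 0.13. In switched against lifelong mice, batches G151 and G152 alone gave Sqle 0.082, Cyp51 0.007, Tm7sf2 0.185, Nsdhl 0.178, Sc5d 0.055 and Dhcr7 0.172, and Tm7sf2 was 0.001 without the arrays with a suffix. With each liver left out Tm7sf2 ran from -0.108 to 0.007 and Sc5d from -0.091 to 0.014. In the main fit replicate numbers were treated as names only. With group and batch means removed, same-numbered livers of different groups had a median r of 0.023 over all probe sets (39 pairs). It was 0.002 for other pairs. These medians cannot show that the numbers carry no pairing. The cause of these shifts was not tested.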
